A study of Mus musculus with 5 samples.

Results

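CCT3 peaks in later introns are the sites at which the CCT3 peak list of this eCLIP series lies in the second or a subsequent intron of a transcript. They were chosen as the rows of that list whose deposited annotation starts with Intron and gives an intron rank of 2 or more, and no fold, p or width entered the choice. They number 2368 of the 10916 CCT3 peaks and of 43658 peaks in the 3 lists of the series. The same class held 3829 of 18650 peaks in the other CCT3 list, called CCT3-2, and 119 of 14092 peaks in the PABPC1 list. The material was GC-2spd(ts), a mouse cell line that the labels describe as spermatocyte, with no treatment or genotype named. The 5 samples were 2 CCT3 immunoprecipitations (CCT3 and CCT3-2), 1 PABPC1 immunoprecipitation, 1 CCT3 input and 1 PABPC1 input. CCT3 and CCT3-2 carry the same library name in the labels, so whether they are independent is not known, and CCT3-2 was treated as a second list and not as a replicate. No comparison therefore has a test, and intervals are 95% intervals that cover counting error only and treat neighbouring peaks as if they were independent. The depth of reads at each peak is unknown, since no read totals entered. Duplicate handling is not given, so whether the reads behind a peak are independent molecules is not known.

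Introns are transcribed with the gene and cut out of the precursor RNA in the nucleus by the spliceosome. Intronic RNA is usually degraded soon after splicing although retained introns, and transcripts of genes nested within an intron, can persist. CCT3 is a subunit of TRiC/CCT, the ring-shaped chaperonin that folds actin, tubulin and other proteins in the cytosol. In eCLIP, RNA crosslinked to a protein is immunoprecipitated with it, cut short by RNase and sequenced, and an input library is made from lysate that was not immunoprecipitated. The fold given here is the authors' log2 fold of a peak, taken as immunoprecipitation over input, and the −log10 p is theirs as well, listed up to a ceiling of 400.

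The RNA of 7 host genes can be printed, because at these sites a whole peak lies inside a RefSeq promoter window (mm10/GRCm38.p6). Of the 2368 peaks, 13 touched such a window and 10 lay wholly inside one. The windows belong mostly to other transcription units that start within the host gene's intron, so these examples are not a sample of all later-intron peaks. Capitals mark the deposited peaks and lower case the bases around and between them, on the strand of the overlapping CCT3-2 peak, which is the strand of the host gene in each. The Katnal1 stretch lies outside the RefSeq span of Katnal1, in an intron of a longer transcript listed under it.
Acin1 chr14:54650261-54650471 (minus strand): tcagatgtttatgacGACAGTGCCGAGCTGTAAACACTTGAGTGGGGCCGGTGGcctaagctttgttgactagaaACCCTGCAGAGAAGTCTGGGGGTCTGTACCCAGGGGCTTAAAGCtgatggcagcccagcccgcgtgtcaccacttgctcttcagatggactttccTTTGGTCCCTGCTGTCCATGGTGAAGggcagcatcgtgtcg
Mtf2 chr5:108077915-108078121 (plus strand): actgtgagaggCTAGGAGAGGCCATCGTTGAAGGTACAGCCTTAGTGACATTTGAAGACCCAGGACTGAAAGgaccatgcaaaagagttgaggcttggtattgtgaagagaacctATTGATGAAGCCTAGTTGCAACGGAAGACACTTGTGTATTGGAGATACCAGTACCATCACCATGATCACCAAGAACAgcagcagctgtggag
Hdac8 chrX:102379916-102379984 (minus strand): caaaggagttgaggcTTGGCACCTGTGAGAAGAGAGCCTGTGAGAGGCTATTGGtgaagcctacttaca
Diaph3 chr14:86794487-86794599 (minus strand): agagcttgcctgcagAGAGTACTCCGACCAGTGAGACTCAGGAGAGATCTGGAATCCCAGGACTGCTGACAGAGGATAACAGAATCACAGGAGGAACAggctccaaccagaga
Katnal1 chr5:148970444-148970509 (minus strand): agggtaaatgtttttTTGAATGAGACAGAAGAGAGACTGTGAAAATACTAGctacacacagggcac
Mbtps2 chrX:157569137-157569222 (minus strand): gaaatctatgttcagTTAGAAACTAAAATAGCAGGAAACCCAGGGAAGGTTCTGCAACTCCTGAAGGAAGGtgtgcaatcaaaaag
Rbbp6 chr7:122970367-122970559 (plus strand): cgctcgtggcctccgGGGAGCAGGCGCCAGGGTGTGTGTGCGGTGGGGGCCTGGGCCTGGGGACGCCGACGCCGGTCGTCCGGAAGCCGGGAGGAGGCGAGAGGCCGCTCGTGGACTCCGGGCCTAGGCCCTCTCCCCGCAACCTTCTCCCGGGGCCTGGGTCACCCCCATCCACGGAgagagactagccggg
Acin1, which encodes a nuclear protein of the exon junction complex, carried 3 peaks in intron 2 of 11, with log2 folds of 3.84, 4.17 and 4.16 in CCT3 and 3.86, 3.97 and 4.19 in CCT3-2. Mtf2, a Polycomb-associated gene, carried 2 peaks in intron 2 of 16 with log2 folds of 3.80 and 3.62. Hdac8, a histone deacetylase gene, carried the printed peak in intron 9 of 10 with a log2 fold of 3.26 in CCT3 and 3.72 in CCT3-2. The printed peaks were lower in fold than the median of the class, which was 4.35. Their G and C content ranged from 36.1% in Katnal1 to 75.5% in Rbbp6, against a median of 52.7% (quartiles 45.7 and 61.7%) over whole windows of 32851 starts. The longest exact run shared by any pair of the 7 stretches had 14 bases, GAGTTGAGGCTTGG, in Hdac8 and Mtf2. Searched on both strands, that run was present in 3 of the 32851 windows. The windows that hold the Hdac8 and Mtf2 stretches are among those searched, so its presence in them was fixed in advance. It lies partly outside the capitals in Hdac8 and wholly outside them in Mtf2. None of the 2368 peaks overlapped a microRNA hairpin.

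Later introns held more than 1 in 5 CCT3 peaks. Their share was 21.7% in CCT3 (20.9 to 22.5%), 20.5% in CCT3-2 and 0.844% in PABPC1 (0.706 to 1.01%). First introns held 867 CCT3 peaks (7.94%), so later introns made up 73.2% of the intronic CCT3 peaks (71.6 to 74.7%) and 74.4% of those of CCT3-2 (73.2 to 75.6%). PABPC1 had 119 later-intron and 35 first-intron peaks, so most of its intronic peaks lay in later introns too. The share of intron sequence that is in later introns was not measured. The tables apply the promoter class differently. Of the later-intron peaks, 135 in CCT3 (5.70%) and 0 in CCT3-2 lay within 1000 bases of the listed start. With peaks inside 1000 bases of that start left out, later introns held 24.2% of CCT3 and 24.5% of CCT3-2 peaks.

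Peaks in later introns had higher folds and lower −log10 p values than peaks in other exons of the same list. The median log2 fold was 4.35 in later introns (quartiles 3.85 and 4.86), 4.40 in first introns, 3.91 in other exons and 3.85 in 3′ UTRs. The median −log10 p was 5.92 in later introns, 6.46 in first introns and 8.90 in other exons. CCT3-2 gave the same order of fold, at 4.03 in later introns, 4.12 in first introns, 3.75 in other exons and 3.69 in 3′ UTRs. Later-intron peaks were 61 bases wide at the median (quartiles 45 and 86, range 3 to 327), against 58 in first introns and 59 in other exons. The stricter threshold, 4 or more in log2 fold and 5 or more in −log10 p, was met by 1117 later-intron peaks (47.2%), by 52.0% of first-intron peaks and by 40.1% of other-exon peaks, where all CCT3 peaks gave 41.9%. The difference was −4.85 percentage points from first introns (−8.72 to −0.959) and 7.07 points from other exons (4.66 to 9.48).

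**Figure D1:**
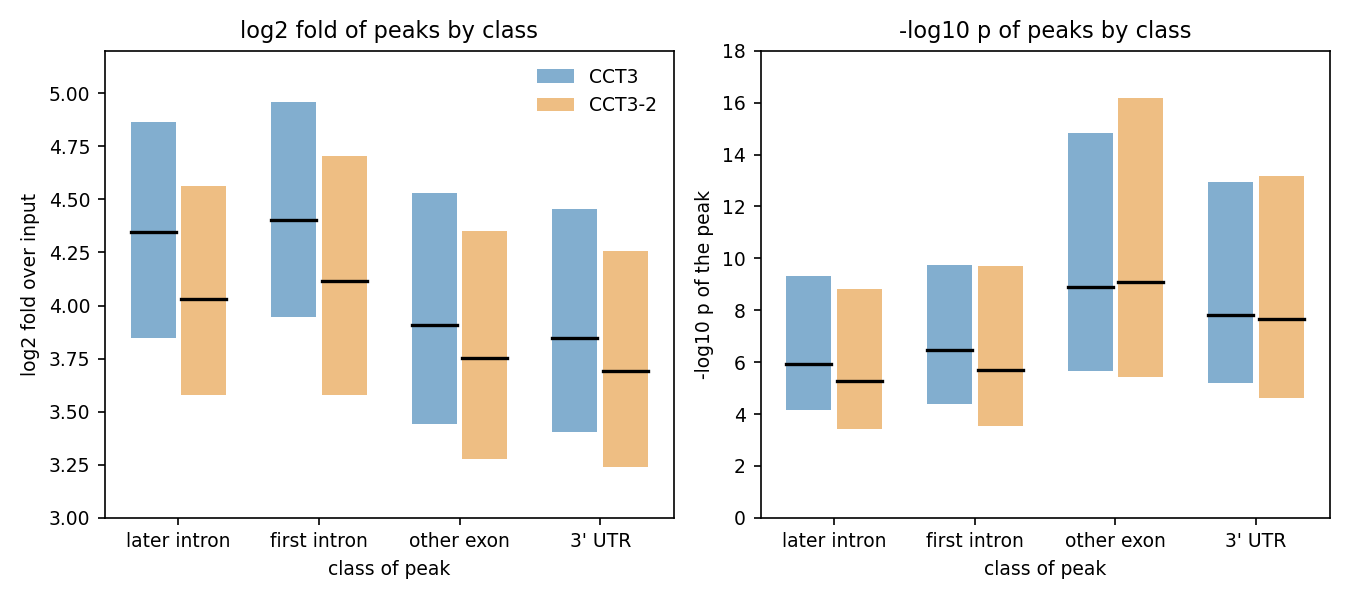
Log2 fold (left) and −log10 p (right) of peaks by class, with CCT3 in blue and CCT3-2 in orange. Boxes span the quartiles and black lines are medians, and later-intron peaks have a median log2 fold of 4.35 in CCT3 and 4.03 in CCT3-2, above the medians of other exons and below those of first introns.

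The rule fixes the lowest rank at 2, so positions along the transcript are a description of what the rule left. The median rank of the intron was 5 (quartiles 3 and 9, up to 88), in transcripts with a median of 12 introns. By position, with a transcript's introns cut into 3 equal parts, 32.9% of peaks lay in the part nearest the 5′ end, 35.7% in the middle and 31.4% in the part nearest the 3′ end. The part nearest the 5′ end lacks the 867 peaks of first introns by construction, so these shares do not show where intronic peaks as a whole lie. The last intron held 336 peaks (14.2%, 12.8 to 15.7%), and 294 of 2316 (12.7%) without the Wwox gene. At the boundary of the class, the 492 peaks of rank 2 had a median log2 fold of 4.24 and the 867 of rank 1 had 4.40.

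Later-intron peaks gathered in few introns. The 2368 peaks lay in 609 introns of 521 genes, of which 494 are protein coding and 14 are lncRNA genes in RefSeq, and 12 IDs had no RefSeq match. Of the 344 genes with 2 or more such peaks, 275 (79.9%) had all of them in 1 intron. A first-intron peak was also present in 25 of the 521 genes (4.80%). First-intron peaks lay in 191 genes in all, where RefSeq has 21900 protein-coding genes, so 4.80% is not shown to be low. The 166 introns with 5 or more peaks held 1593 of the peaks (67.3%), while 240 introns held a single peak. Another later-intron peak of the same gene lay within 1000 bases of 82.2% of the peaks (80.6 to 83.7%). That share was 85.5% for first-intron peaks and 86.0% for other-exon peaks counted in the same way, so the share was not higher in later introns.

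Most dense introns were compact. In 138 of the 166, all peaks fell within 10000 bases, and these 1181 peaks had a median log2 fold of 4.51. In 17 introns the peaks spread over more than 10000 and up to 50000 bases, and in 11 over more than 50000 bases, where 217 peaks had a median log2 fold of 4.27. At the median, a dense intron had its peaks within 3000.5 bases, with peaks covering 17.9% of that stretch. Compact examples were intron 3 of 52 of Col4a5, a basement membrane collagen gene, with 28 peaks in 7490 bases, and intron 7 of 31 of Mroh1 with 20 peaks in 3246 bases. Intron 9 of 9 of Ergic1, which encodes a protein of the compartment between endoplasmic reticulum and Golgi, held 16 peaks in 2050 bases, covering 46.9% of them. All 16 also lay inside the lncRNA gene Gm41553, which is nested in Ergic1 and whose strand was not known here. Dispersed examples were Ube2e2, a ubiquitin-conjugating enzyme gene, with 36 peaks over 195503 bases, and Sox5, a transcription factor gene, with 26 over 91518 bases. Runx1, another transcription factor gene, had 21 over 113255 bases.

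**Figure D2:**
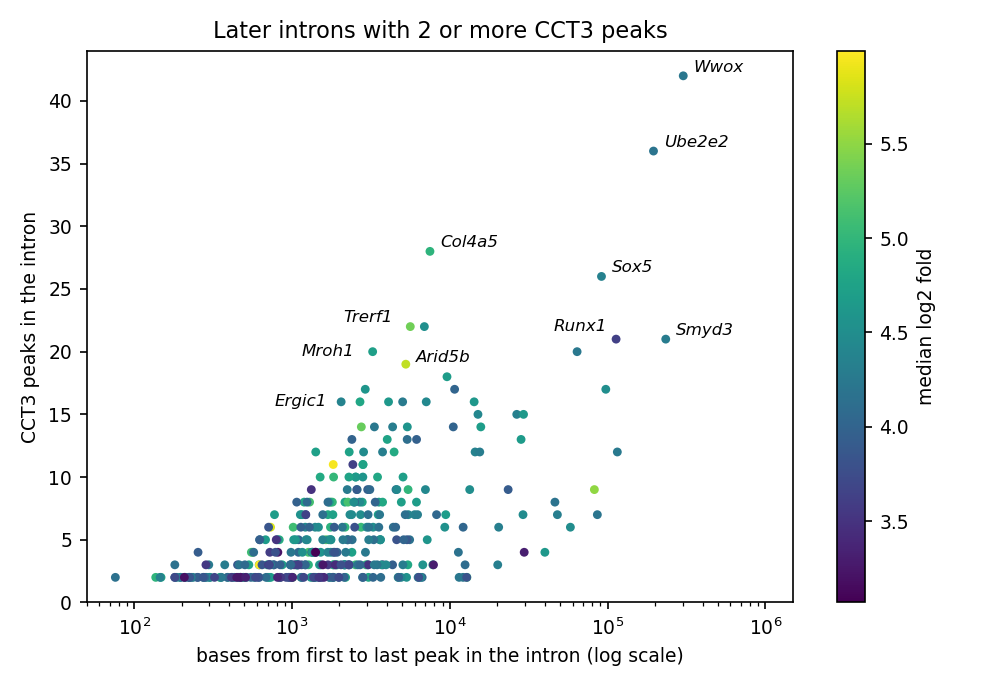
Each point is 1 later intron with at least 2 CCT3 peaks, placed by the bases from its first to its last peak (log scale) and by its number of peaks, and coloured by median log2 fold. Wwox, Ube2e2, Sox5, Runx1 and Smyd3 lie to the right with widely spread peaks, whereas Col4a5, Trerf1, Mroh1, Arid5b and Ergic1 hold 16 to 28 peaks within 10000 bases.

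Of the 5 genes with the highest folds, Arid5b, Zfp101 and Prim1 had overlapping CCT3-2 peaks of similar fold, Lrp2 had one of lower fold and Pot1b had none. Arid5b, which encodes a DNA-binding chromatin regulator, had 19 peaks in intron 5 of 9 on chromosome 10, and the strongest, spanning 68133230 to 68133345, reached a log2 fold of 7.56 in CCT3 and 7.07 in CCT3-2. Of these 19, 17 lay within 1884 bases with a median log2 fold of 5.93, where CCT3-2 had 26 peaks with a median of 5.76. Zfp101, a zinc finger gene, had 11 peaks in 1826 bases of intron 4 of 5, and the highest (chromosome 17, 33370944 to 33371034) had a log2 fold of 7.09 in CCT3 and 6.41 in CCT3-2. That intron belongs to a transcript reaching beyond the RefSeq span of Zfp101, which runs from 33380174 to 33394637. Prim1, the catalytic primase subunit gene, had 7 peaks, the highest at a log2 fold of 6.83 in CCT3 and 6.53 in CCT3-2. Uhrf1bp1l, Hspa14 and Bard1 were named because their peaks were high in both lists, so the likeness of their values was set by that choice. Uhrf1bp1l reached 6.82 in CCT3 and 7.01 in CCT3-2. Hspa14, an Hsp70 family gene, reached 6.64 in both lists. Bard1, the partner of Brca1, reached 6.55 in CCT3 and 6.59 in CCT3-2.

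Lrp2, which encodes the endocytic receptor megalin, had the highest fold of the class at a single peak of 22 bases in intron 4 of 78 (chromosome 2, 69546826 to 69546847). Its log2 fold was 8.67 with a −log10 p of 105.5 in CCT3, and 5.29 with a −log10 p of 9.64 in CCT3-2. Eps15l1, an endocytic adaptor gene, had 1 peak of 20 bases in intron 23 of 23, listed at 6.72 in log2 fold and 50.3 in −log10 p in CCT3 and no overlapping peak in CCT3-2. Hnrnpl, which encodes a splicing factor, held the highest −log10 p values of the class, and its 6 peaks in intron 7 of 13 all overlapped CCT3-2 peaks. The peak at 28816981 to 28817115 of chromosome 7 stood at the ceiling of 400 in both lists, with a log2 fold of 6.09 in CCT3 and 6.11 in CCT3-2. The CCT3-2 table annotates the matching Hnrnpl peaks as promoter, so Hnrnpl has no later-intron peak there.

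In some dense introns no peak overlapped a CCT3-2 peak. In 103 of the 166 introns with 5 or more peaks, every peak overlapped a CCT3-2 peak, and in 147 at least 80% did. In 4 none did, namely Trerf1 with 22 peaks, Pot1b with 16, Slfn9 with 12 and Ulbp1 with 9. Trerf1, a transcriptional regulator gene, had a median log2 fold of 5.36 and a highest of 6.77 in intron 14 of 19. Pot1b, a telomere-binding protein gene, reached 6.85. The CCT3-2 list as used here held no peak anywhere in Trerf1, Pot1b or Ulbp1, and 14 in Slfn9, 2 of them between the first and last CCT3 peak of the intron. Whether the CCT3-2 list used here is complete for these genes is not known, so the missing peaks are not shown to be a difference between the samples. The 59 peaks of these introns made up 22.4% of the 263 later-intron peaks without a CCT3-2 counterpart. The same count was 1 of 64 for first introns with 5 or more peaks.

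**Figure D3:**
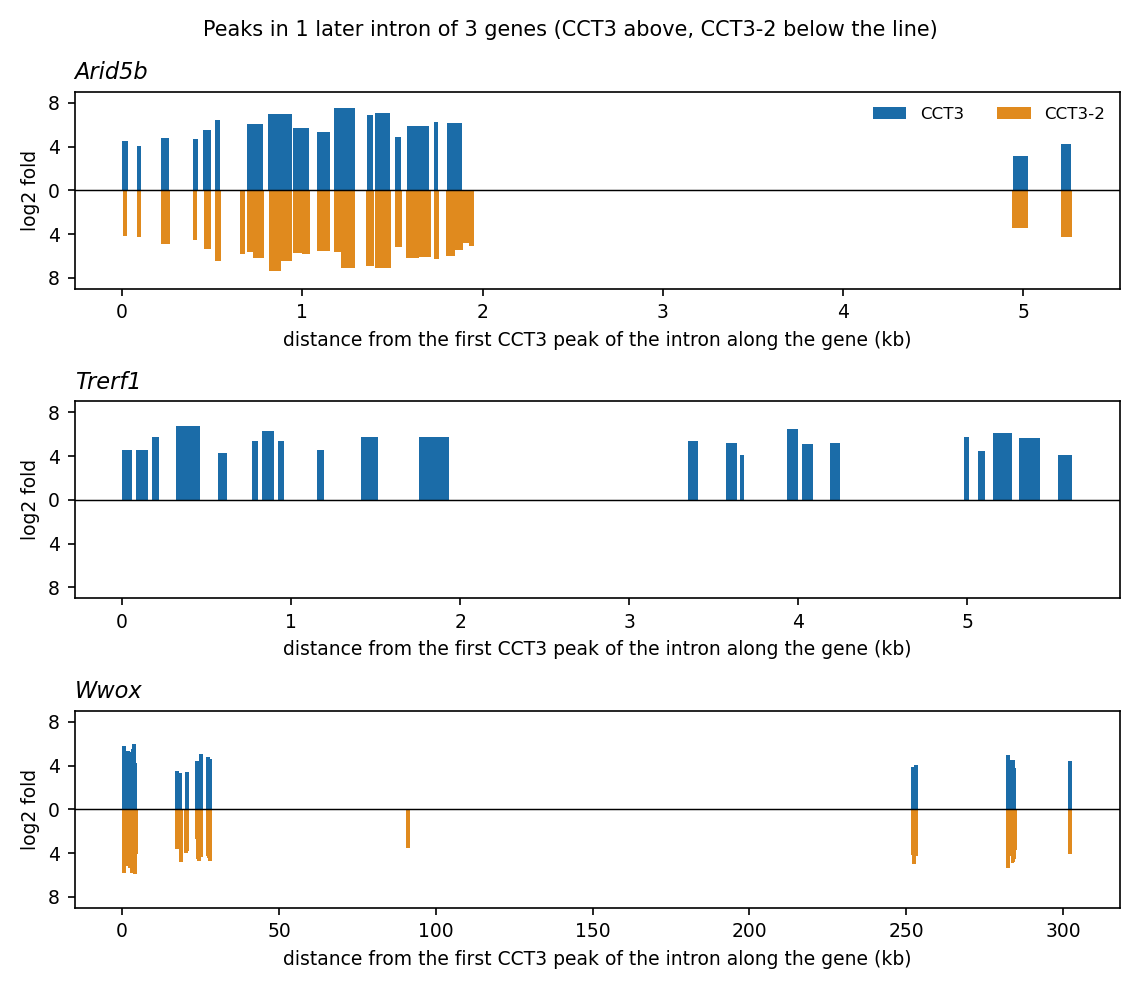
Peaks of 1 later intron in Arid5b, Trerf1 and Wwox, drawn by distance along the gene from the first CCT3 peak (kb), with log2 fold as height, CCT3 above and CCT3-2 below the line. In Arid5b both lists show a dense stretch and 2 peaks near 5 kb, in Trerf1 the CCT3-2 list used here, which may not be complete, has 0 peaks, and in Wwox the peaks form small groups over 301786 bases.

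Wwox, a very long tumour suppressor gene at a common fragile site, carried the most later-intron peaks, 52 in CCT3 and 82 in CCT3-2. Its intron 8 of 8 held 42, in 5 groups more than 10000 bases apart with 15, 13, 5, 8 and 1 peaks, and the group nearest the 5′ end had the highest median log2 fold at 4.96.

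Over the whole class, 2105 of the 2368 peaks (88.9%, 87.6 to 90.1%) overlapped a CCT3-2 peak by at least 1 base. The share was 88.8% for first-intron peaks and 90.2% for other-exon peaks, where all CCT3 peaks gave 89.9%, so it is near the background. The difference from first introns was 0.0816 percentage points (−2.26 to 2.65). Of the 2105 pairs, 1979 were annotated as later intron in both lists and 126 as promoter in CCT3-2. The log2 folds of the pairs had a Spearman correlation of 0.882, given as a description because the samples share a library name and neighbouring peaks share an intron. CCT3-2 minus CCT3 was −0.07 at the median on the log2 scale, and 87.4% of pairs lay within 0.5. Later-intron peaks without a CCT3-2 peak had a median log2 fold of 4.12, against 4.40 for those with one. In the other direction, 2247 of the 3829 later-intron CCT3-2 peaks (58.7%) overlapped a CCT3 peak, against 67.2% of CCT3-2 peaks in other exons, where all CCT3-2 peaks gave 64.3%. That difference was −8.50 percentage points (−10.4 to −6.60). Later minus first introns was −1.29 points (−4.33 to 1.80). The lists have unlike floors, since CCT3 holds only peaks at 3 or more in both values. Of the 1582 later-intron CCT3-2 peaks without a CCT3 peak, 611 (38.6%) were below 3 in log2 fold or −log10 p. The median −log10 p in CCT3-2 was 5.27 in later introns and 9.10 in other exons, so the shares of the 2 classes are not like for like. Of the 521 genes, 471 were shared, which is 90.4% of the CCT3 genes and 70.3% of the 670 CCT3-2 genes.

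**Figure D4:**
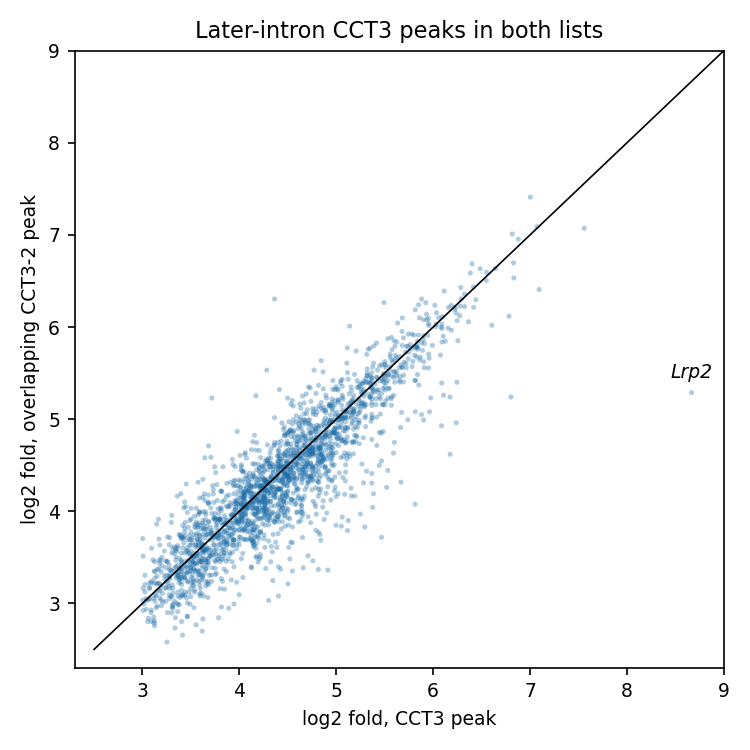
Log2 fold of each of 2105 later-intron CCT3 peaks (horizontal) and of the CCT3-2 peak that overlaps it (vertical), with the line of equality. Most points lie near the line, and Lrp2 stands apart at 8.67 in CCT3 and 5.29 in CCT3-2.

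No later-intron CCT3 peak overlapped a PABPC1 peak. PABPC1 binds the poly(A) tails of mature mRNA, mainly in the cytoplasm. The count was 0 of 2368, which allows a share of up to 0.127%, against 4 of 867 first-intron peaks and 35 of 5232 other-exon peaks, where all CCT3 peaks gave 0.669%. The difference from other exons was −0.669 percentage points (−0.929 to −0.421). For 3′ UTR peaks of CCT3 the count was 33 of 1969 (1.68%). Only 119 of the 14092 PABPC1 peaks lay in later introns, against 756 in other exons and 11263 in 3′ UTRs. The room for overlap in later introns was therefore small, and the count of 0 is to be read beside it. In CCT3-2, 9 of 3829 later-intron peaks (0.235%) overlapped one, where all CCT3-2 peaks gave 0.922%. PABPC1 peaks were within 1000 bases of 3 later-intron CCT3 peaks, 2 in Taf4 and 1 in Usp2. The spans of host genes nonetheless held PABPC1 peaks elsewhere. Of 509 genes with a RefSeq span, 187 (36.7%) had a PABPC1 peak inside it, against 34.7% of first-intron genes and 38.4% of other-exon genes. These counts take peaks on either strand and of any annotated gene, so a peak of an overlapping gene is included. The share over all genes was not measured, and host genes were longer than other-exon genes (medians 93177 and 30251 bases).

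A minority of host genes also had an exonic CCT3 peak. It was present in 159 of the 509 (31.2%, 27.4 to 35.4%), and in 31.8% of the genes with a first-intron peak. UTR annotations name no host, so any UTR peak inside the span counted as exonic, on either strand and also where it belongs to an overlapping gene. The share over all genes was not measured, so 31.2% is not shown to be low. Other-exon CCT3 peaks lay in 1324 genes in all, where RefSeq has 21900 protein-coding genes. An exonic CCT3 peak within 1000 bases accompanied 252 later-intron peaks (10.6%), against 18.8% of first-intron peaks. In Brca2, a homologous recombination gene, 8 later-intron peaks reached a log2 fold of 6.09 and 28 exonic peaks were listed. Ube2e2, Col4a5, Wwox and Sox5 had 0 exonic peaks beside 26 to 52 in later introns.

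Host genes were long. Their median length was 93177 bases (quartiles 49429 and 199570), against 78485 for first-intron genes, 30251 for other-exon genes and 17146 for 21900 RefSeq protein-coding genes. Of those 21900 genes, 2.26% had a later-intron CCT3 peak. The share was 0.0504% up to 10000 bases (4 of 7939), 1.30% up to 50000, 5.25% up to 100000, 9.24% up to 300000 and 12.2% above that (68 of 557, 9.75 to 15.2%). Gene length includes the introns, whose own length was not measured here.

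**Figure D5:**
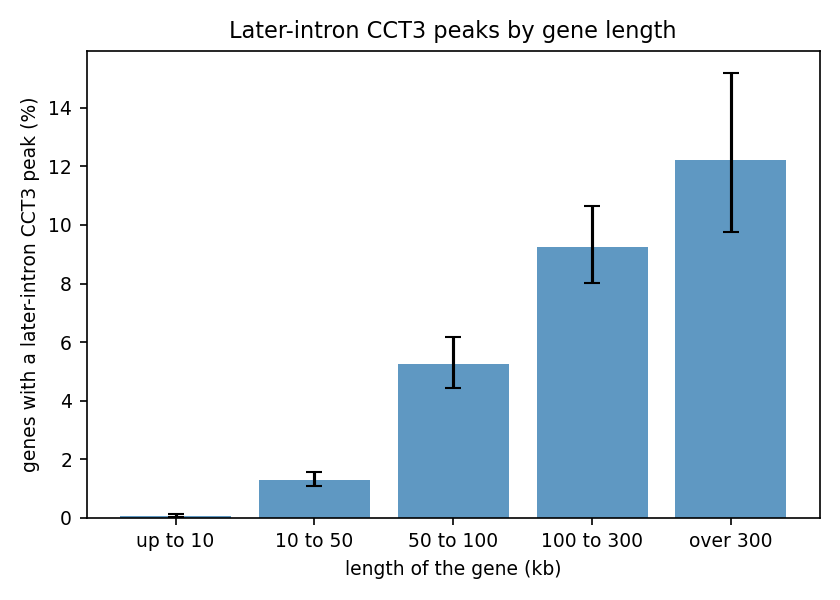
Share of RefSeq protein-coding genes with a later-intron CCT3 peak, by gene length (kb). Bars are percentages and whiskers Wilson 95% intervals, and the share is 0.0504% in the shortest class and 12.2% in the longest.

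The gene lists were reached unevenly, to be read beside the 2.26% of all protein-coding genes and beside gene length. Of 37 very long genes of fragile sites and neuronal adhesion, 7 had a later-intron peak (18.9%), with a median length of 1184910 bases for the list. Ptprk, a receptor phosphatase gene, had 19 peaks reaching 5.47 in log2 fold, and Rad51b had 9 with up to 6.61. Of 39 DNA replication and repair genes, 7 had one. Rad51b and Brca2 act in homologous recombination, and Orc3, an origin recognition subunit gene, had 8 peaks reaching 6.38 in log2 fold in CCT3 and 6.59 in CCT3-2. Signalling kinases and phosphatases had 7 of 44, including Igf1r and Insr with 3 peaks each.

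Of 40 ubiquitin ligase and deubiquitinase genes, 6 had a later-intron peak. Among them Cul4a, a cullin scaffold gene, had 4 peaks, and the highest had a log2 fold of 4.40 in CCT3 and 3.08 in the CCT3-2 peak that overlaps it. Chromatin regulators had 5 of 48. Beside Arid5b these included Crebbp, a histone acetyltransferase gene, with 6 peaks up to 4.94. Small GTPase regulators had 6 of 40, with Arhgap21 at 6 peaks up to 5.68. Nuclear RNA-binding and splicing factors had 5 of 55, where Mbnl2, a splicing regulator gene, had 3 peaks up to 4.56 beside Hnrnpl. Poly(A) tail and deadenylation factors had 4 of 32, led by Larp4b with 9 peaks up to 5.03 and Cnot4, a CCR4-NOT ligase gene, with 7 up to 5.11. Cytoskeleton and motor genes had 3 of 39, of which Dync2h1, the ciliary dynein heavy chain gene, had 21 peaks over 5 introns reaching 4.78 in log2 fold. The p53 pathway had 2 of 30, with the proapoptotic gene Bcl2l11 at 7 peaks up to 5.67. Long noncoding RNAs had 2 of 35, with Brip1os at 15 peaks up to 6.13 and Pvt1 at 1. No TRiC/CCT or prefoldin gene (0 of 19) and no cell cycle gene (0 of 38) had one, although CCT3-2 had 2 of the cell cycle genes. The upper limits of these shares were 16.8% and 9.18%, above the 2.26% of all protein-coding genes. These counts of 0 therefore show nothing particular to the 2 lists, whose median gene lengths were 13428 and 23407 bases.

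Markers of cell types were too few to read against the 2.26% of all protein-coding genes. Later-intron CCT3 peaks lay in 0 of 13 meiotic spermatocyte, 0 of 8 spermatid, 0 of 7 Sertoli, 0 of 5 Leydig and 0 of 8 fibroblast marker genes. The upper limits of these shares ran from 22.8% to 43.4%, so the counts of 0 show nothing particular to the markers. PABPC1 peaks lay in the spans of 12, 8, 5, 4 and 7 of them in the same order. Several marker genes are short, with a median of 3226 bases for the spermatid list. The lists of bound sites do not measure expression, so the labelled cell type was not checked by level.

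A minority of the peaks lay in the span of another gene. Another RefSeq gene covered 305 of the 2368 peaks (12.9%, 11.6 to 14.3%), a lncRNA gene in 158 cases and a protein-coding gene in 138, some in both. The gene named in the table, that of the nearest start, was the annotated host for 82.2% of the peaks. Over all pairs of genes on opposite strands, 40 of 114 peaks with a strand (35.1%) were on the strand of the other gene. In Hdac8, 19 peaks lay in the span of the opposite-strand lncRNA gene Gm32262, and 0 of them carried its strand, although some had no strand. Of the 2312 peaks whose host has a RefSeq span, 97.1% lay inside it. In Katnal1 none did. Its 13 peaks lie between 148968722 and 148972737 of chromosome 5, in an intron of a longer listed transcript, outside the RefSeq span of Katnal1 (148871584 to 148929168) and inside that of the same-strand lncRNA gene Gm15411.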

How the data were processed

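The data were eCLIP peak lists from GC-2spd(ts) cells. Per the submitters' processing notes, reads passed through bcl2fastq 2.20 and the genome was mm10. Aligner, peak caller, annotation tool and duplicate handling: not given in the sources used here. The deposited −log10 p and log2 fold values are the authors' own, 1 of each per peak. Per the file headers, the CCT3 table names both and gives no strand, while the unnamed columns of the other tables were taken to hold these measures because their values span like ranges. Peak width is the deposited width in bases. The authors' CCT3 and PABPC1 lists hold peaks with both values at 3 or more, whereas CCT3-2 reaches lower.

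Intron ranks and hosts came from the deposited annotation, and gene spans and promoter windows from RefSeq (GRCm38.p6). Overlaps, regardless of strand, needed 1 base. Peaks were assigned to the strand of an overlapping CCT3-2 peak. Shares have Wilson intervals, also for the counts of 0 in gene lists and markers, and differences have Newcombe intervals. The count of 0 for the PABPC1 overlap has a limit of 3 counts. Counting of overlaps and neighbours was checked on simulated data. Python 3.11.15, numpy 2.4.6, pandas 2.3.3, scipy 1.17.1 and matplotlib 3.10.9 were used. The peaks, gene lists and settings were chosen with earlier results of these data known.

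Named genes were those of the 8 highest folds, the 8 with most peaks, the 5 with the highest smaller fold over both CCT3 lists, the 5 with the highest −log10 p, and up to 4 per gene list. Mroh1, Runx1, Smyd3, Taf4, Usp2, the genes with printed sequence, those without CCT3-2 peaks and those in overlapping gene spans were named after their values were seen. Some items are not reported here.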

Additional observations from a re-analysis of the deposited data

Results flagged for a closer look

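Strand is given in the CCT3-2 table and was used above only to orient printed sequences and in single genes. Of 3702 later-intron CCT3-2 peaks in genes of known strand, 73 (1.97%, 1.57 to 2.47%) lay on the strand opposite to their annotated gene, against 36 of 1222 first-intron peaks (2.95%) and 65 of 6563 other-exon peaks (0.990%). These 73 are given because they are signal in a column outside the main measurement, and their share lies between those of the other classes. Read through the overlapping CCT3-2 peak, 46 of 2028 later-intron CCT3 peaks (2.27%) were on the opposite strand. Cab39l accounted for 15 of them, all 15 of its peaks with a strand and reaching 6.55 in log2 fold, and Cdadc1, which is transcribed the other way, covers those sites. The Cab39l peaks lie between 59569321 and 59572019 of chromosome 14, outside the RefSeq span of Cab39l (59440934 to 59548904). Of the 46 opposite-strand peaks, 21 lay outside the RefSeq span of their annotated gene, against 37 of 1982 same-strand peaks, and among peaks inside that span 25 of 1970 (1.27%) were on the opposite strand. Gm10389 accounted for 6, covered by Rai14. Another RefSeq gene covered 41 of the 46 opposite-strand peaks (89.1%, 77.0 to 95.3%), against 191 of 1982 same-strand peaks (9.64%, 8.41 to 11.0%).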

How the results depend on the processing

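Over 44 alternatives to 10 results, 23 stayed within the main interval (within 1.5 times for a count of genes), 21 moved outside it, and no test or direction was at stake. The stricter threshold on log2 fold (4) and −log10 p (5) gave a later-intron share of 24.4%, a later share of intronic peaks of 71.2%, an overlap with CCT3-2 of 92.7%, a median log2 fold of 4.89 and a median width of 67 bases, where the median fold is raised by the threshold itself. It left 300 genes in place of 521, 23.3% of them with an exonic peak, and a neighbour within 1000 bases for 79.8% of peaks. The CCT3-2 list in place of CCT3 gave a share of 20.5%, a median log2 fold of 4.03, a neighbour for 86.9% and a PABPC1 overlap of 0.235%. Its other values ranged from 14.4% of peaks in the last intron, 31.1% of genes with an exonic peak and 74.4% of intronic peaks in later introns to 62 bases of width and 670 genes. Beyond 1000 bases from the listed start the share was 24.2%, and 24.5% in CCT3-2, the last chosen after seeing the data. Counting each gene once gave 28.2% of genes with an intronic or other-exon peak and 75.8% of genes with an intronic peak. Genes with only UTR or promoter peaks are outside the first of these shares, because those annotations name no host. A rank of 3 or more gave 58.0% of intronic peaks. Reciprocal overlap of 50% gave 79.9% in CCT3-2, and CCT3-2 peaks with both values of at least 3 gave 82.6%. A distance of 200 bases gave a neighbour for 60.1%. Without Wwox the last intron held 12.7%. Base composition and motifs of all peaks, and distances to exon edges, were not run, because no genome sequence or exon coordinates were used here. No paired analysis was possible because each list stands for 1 library and nothing was tested between samples. Unknown read depth limits what an absent peak can show.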

Other observations

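The share of CCT3 peaks that lie in later introns varied between chromosomes. It was 42.4% on chromosome 14 (134 of 316 peaks, in 16 genes), 34.0% on X (113 of 332, in 18 genes) and 33.8% on chromosome 10 (201 of 595, in 33 genes), against 12.8% on chromosome 18 (61 of 477, in 18 genes). On chromosome 14, Ube2e2 held 36 and Samd4 33 of the 134 peaks. Samd4, an RNA-binding translational repressor gene, had its 33 peaks in 4 introns, and the highest log2 fold of any later-intron peak of the gene was 5.96 in CCT3 and 6.02 in CCT3-2, not necessarily at 1 site. Spidr, a DNA repair scaffold gene on chromosome 16, had 33 in 3 introns up to 5.91, and Cep112, a centrosomal protein gene on chromosome 11, had 27 in 3 introns up to 6.02, all of which overlapped a CCT3-2 peak.

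Where a gene had both kinds of CCT3 peak, the highest later-intron log2 fold minus the highest exonic one had a median of 0.27 (quartiles −0.47 and 0.92, 159 genes), so either kind was the higher in many genes. Exonic peaks here include any UTR peak inside the gene span, also one of an overlapping gene.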
